A study of Mus musculus with 8 samples.

Results

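The mitochondrial ribosomal protein genes were examined in the livers of myeloid FoxO1 knockout mice and their littermates after a long nonalcoholic steatohepatitis (NASH) diet. Members were all genes of the count table whose symbol starts with Mrpl or Mrps followed by a digit, with pseudogenes left out. This rule, which uses names and no measured value, gave 78 of the 46517 genes, of which 49 are Mrpl genes, named for the large subunit, and 29 are Mrps genes, named for the small subunit. The members lie on 17 chromosomes. Of the 78 members, 77 passed the filter on low counts, and Mrpl53 did not.

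The mitochondrial ribosome is built in the matrix from a pair of ribosomal RNAs encoded in mitochondrial DNA and from proteins that are all encoded in the nucleus, made in the cytosol and imported. It translates the few mRNAs of the mitochondrial genome, which encode core subunits of the respiratory chain and of ATP synthase, and it works attached to the inner membrane. Many of its proteins have bacterial relatives, and others exist only in mitochondrial ribosomes. Hepatocytes are rich in mitochondria, and fatty acid oxidation and gluconeogenesis in the fasted liver depend on them.

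Whole liver was taken from 4 male MøFoxO1-KO mice (FoxO1 loxP/loxP-Lyz2-Cre, replicates 26 to 29) and 4 male WT littermates (FoxO1 loxP/loxP without Cre, replicates 22 to 25), all on the C57BL/6 background. Mice of both groups carried the floxed FoxO1 alleles, were put on the NASH diet when 6 weeks old, stayed on it for 25 weeks and were fasted for 16 hours before dissection at 31 weeks. Cre is driven by the lysozyme 2 promoter and acts in myeloid cells, so hepatocytes are not its target, and fewer cells of a type cannot be told apart from less RNA per cell in such tissue. Polyadenylated RNA was sequenced, and the authors deposited the number of reads on the exons of each Ensembl gene with coordinates on GRCm38. Totals were 15253218 to 18025481 counts per mouse. Values below are normalized counts (counts scaled to the mean library size after TMM normalization) unless a level per length is named. The question was whether the genes of the mitochondrial ribosome differ in expression between the genotypes. Foxo1 itself had 404 ± 73.9 normalized counts in WT and 359 ± 73.4 in MøFoxO1-KO livers (SD, n = 4 each), and the groups overlapped, so whole-liver Foxo1 does not separate the genotypes. All 9 hepatocyte markers examined were detected. Nothing in the labels says whether mice shared litters or cages, and each library is 1 mouse.

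Promoter windows of 5 members are shown because they cover the smallest P of each subunit (Mrps18a and Mrpl17), the highest level per length (Mrpl14) and a pair of genes that start head to head (Mrpl46 and Mrps11). Each runs from 150 bases before to 30 bases after the RefSeq transcription start on GRCm38.p6, 5′ to 3′ on the gene's strand, and capitals mark matches to the motifs named below. The Mrps18a window is chr17:46110854-46111033 on the plus strand, the Mrpl14 window is chr17:45686199-45686378 on the plus strand, and the Mrpl17 window is chr7:105811058-105811237 on the minus strand. The Mrpl46 window is chr7:78783060-78783239 on the minus strand and the Mrps11 window is chr7:78782981-78783160 on the plus strand, so that both hold the same stretch between their starts on opposite strands.
Mrps18a: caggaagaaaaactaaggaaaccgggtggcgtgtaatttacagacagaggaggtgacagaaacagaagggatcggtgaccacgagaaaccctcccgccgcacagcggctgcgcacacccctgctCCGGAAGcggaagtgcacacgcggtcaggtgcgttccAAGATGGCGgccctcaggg
Mrpl17: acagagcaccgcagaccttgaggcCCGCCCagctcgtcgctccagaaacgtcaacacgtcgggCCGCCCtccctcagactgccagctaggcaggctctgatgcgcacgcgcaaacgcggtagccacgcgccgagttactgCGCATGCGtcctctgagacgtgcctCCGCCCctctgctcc
Mrpl14: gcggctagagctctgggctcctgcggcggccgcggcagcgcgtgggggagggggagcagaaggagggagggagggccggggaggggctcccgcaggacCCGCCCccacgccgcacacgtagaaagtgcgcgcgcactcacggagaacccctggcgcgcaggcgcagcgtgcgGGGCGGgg
Mrpl46: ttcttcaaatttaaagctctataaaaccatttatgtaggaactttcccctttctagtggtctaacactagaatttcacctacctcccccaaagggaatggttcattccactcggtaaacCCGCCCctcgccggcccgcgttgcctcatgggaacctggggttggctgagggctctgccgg
Mrps11: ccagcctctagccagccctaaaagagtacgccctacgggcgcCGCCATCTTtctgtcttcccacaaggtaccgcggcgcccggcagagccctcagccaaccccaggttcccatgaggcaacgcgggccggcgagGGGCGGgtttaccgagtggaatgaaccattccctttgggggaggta

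RefSeq windows of 250 bases before to 50 bases after the start were found for 69 of the 78 members (75 windows) and were searched on both strands beside all 32851 windows. The ETS core CCGGAAG, the letters bound by GABP and other ETS factors, was in 34.7% of member windows and 8.86% of all windows. The YY1 motif AAGATGGCG was in 10.7% of member windows and 1.40% of all windows, and the core of the NRF1 motif, GCATGCG, was in 10.7% of member windows and 3.58% of all windows. The SP1 box GGGCGG was in 52.0% of member windows and 35.7% of all windows, and CCAAT, the NFY box, was in 40.0% of member windows and 37.4% of all windows. Median GC content was 58.7% in member windows and 52.7% in all windows, and GC-rich letters are met more often in GC-rich windows. In the printed windows, Mrps18a holds CCGGAAG upstream of its start and AAGATGGCG just after it. Mrpl17 holds overlapping matches of GCATGCG on both strands at its start and boxes of GGGCGG read on the other strand, and Mrpl14 holds GGGCGG on each strand. The 25 tested members with CCGGAAG had a median log2 fold change between genotypes of 0.37, and 24 of them were higher in MøFoxO1-KO livers. The 43 members with a window but no match had a median of 0.24, with 32 higher. For GCATGCG the medians were 0.13 with (8 members) and 0.30 without (60 members), and for AAGATGGCG 0.20 with (8 members) and 0.31 without. For GGGCGG they were 0.31 with (34 members, 32 higher) and 0.26 without (34 members, 24 higher). For CCAAT they were 0.29 with (26 members, 20 higher) and 0.29 without (42 members, 36 higher). These are descriptions of letters and medians, and no test was run on them.

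Most mitochondrial ribosomal protein genes of both subunits had higher mean expression in MøFoxO1-KO than in WT livers, by a small amount per gene. Of 48 Mrpl genes tested, 40 were higher and 8 lower, and the median log2 fold change was 0.29 (1.22-fold). Of 29 Mrps genes, 25 were higher and 4 lower, with a median of 0.30 (1.23-fold). The median over all 13278 tested genes was -0.014, and 48.3% of them were above 0. No member was called by edgeR. At an adjusted P under 0.05 (edgeR quasi-likelihood test, Benjamini-Hochberg adjustment over all tested genes) the count was 0 of 77 members, where 0.294% of all tested genes passed. At an unadjusted P under 0.05, 24 Mrpl and 14 Mrps genes were higher and none of either was lower, beside 8.65% of all tested genes higher and 8.06% lower. The Wald test of DESeq2, with Benjamini-Hochberg adjustment, called 4 Mrpl and 4 Mrps genes, all higher, where it called 4.41% of all tested genes. Every MøFoxO1-KO mouse lay above every WT mouse for 29 of 77 members, against 5.00% of all tested genes, and below for 0 of 77, against 4.71%. The log2 fold changes of members lay between -0.23 and 0.80 with standard errors of 0.098 to 0.22, and none reached the limit of 1.5. Members are not independent of each other, since all are measured in the same 8 libraries. Short genes in general were higher in MøFoxO1-KO libraries, and 1 WT library was low for members, as given with values further down.

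**Figure D1:**
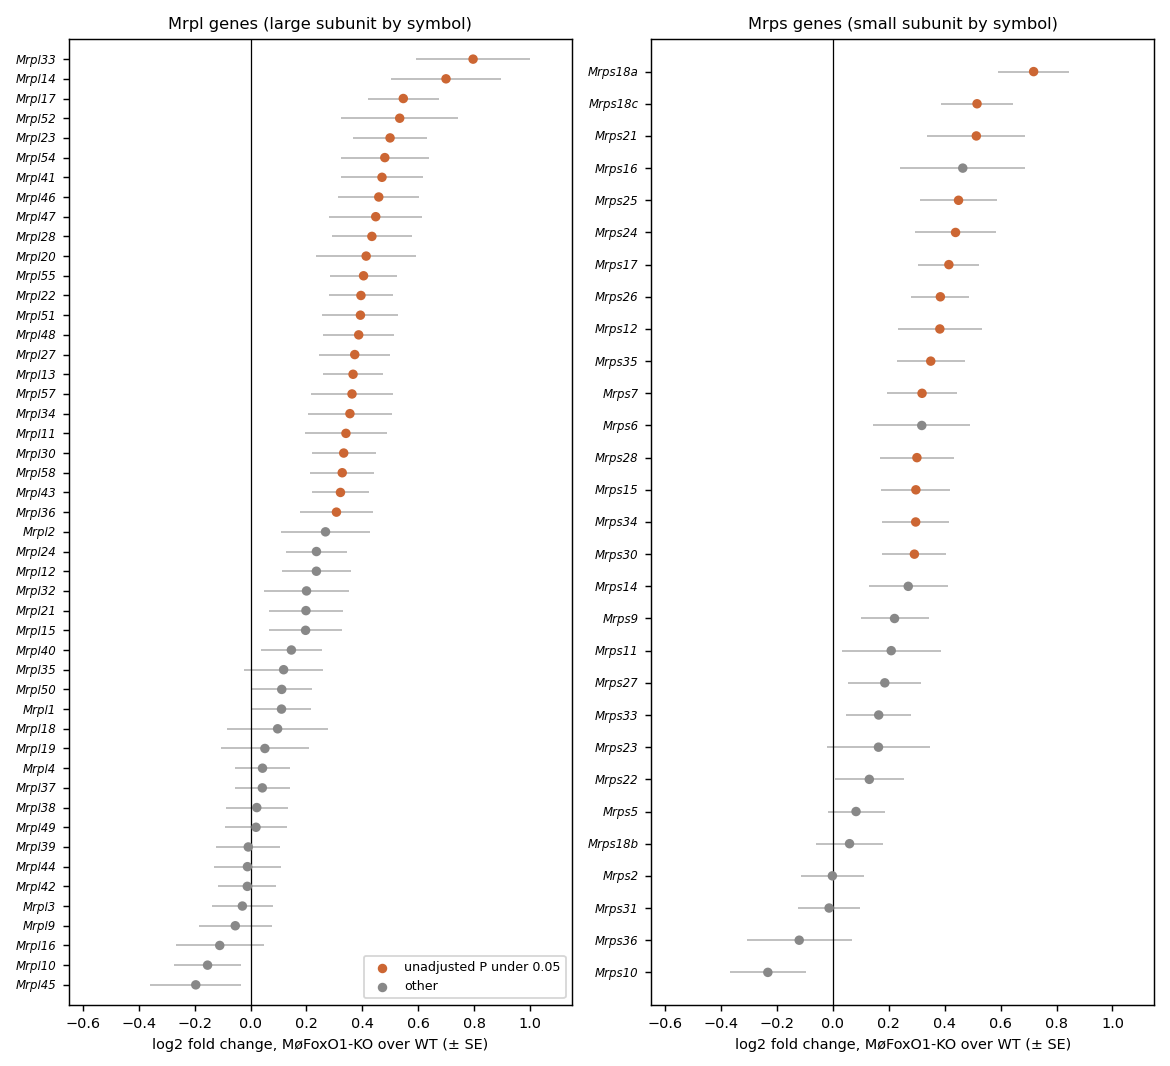
Log2 fold change (MøFoxO1-KO over WT, horizontal axis) of each tested Mrpl gene (left) and Mrps gene (right), sorted by value, with standard errors as grey lines and unadjusted P under 0.05 (edgeR quasi-likelihood test) in orange. Of the Mrpl genes 40 of 48 and of the Mrps genes 25 of 29 sit to the right of 0, and no gene on the left is orange.

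Among the large subunit genes, Mrpl17 had the smallest P. It encodes a protein near the exit of the peptide tunnel, and its gene (ENSMUSG00000030879, chromosome 7, 105806658 to 105811099, minus strand) starts in the promoter window printed above. Mrpl17 had normalized counts of 1254, 1014, 1210.0 and 1123 in WT replicates 22 to 25 and 1441, 1904, 1562 and 1815 in MøFoxO1-KO replicates 26 to 29. The lowest MøFoxO1-KO mouse lay above the highest WT mouse. Its log2 fold change was 0.55 ± 0.13 (SE, edgeR quasi-likelihood test, Benjamini-Hochberg adjusted P = 0.112). Adjusted P of Mrpl17 lay between 0.00503 (DESeq2) and 0.336 over the 18 alternatives, of which 1 passed the threshold (Benjamini-Hochberg adjustment in each).

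Mrpl33, which encodes a small protein of the large subunit with a bacterial relative, had the largest log2 fold change of all members. Mrpl33 (ENSMUSG00000106918, chromosome 5, 31596935 to 31664384, plus strand) had normalized counts of 346, 249.8, 328 and 356 in WT replicates 22 to 25 and 372, 623, 501 and 728 in MøFoxO1-KO replicates 26 to 29. The groups did not overlap, but replicate 26 lay close to the WT mice and replicate 29 far above them. Means were 319.9 ± 48.2 in WT and 556 ± 154 in MøFoxO1-KO livers (SD, n = 4 each), and the log2 fold change was 0.80 ± 0.20 (SE, edgeR quasi-likelihood test, Benjamini-Hochberg adjusted P = 0.127). Mrpl14 encodes a protein of the face of the large subunit that meets the small one, and it had the highest level per length of all members. Mrpl14 (ENSMUSG00000023939, chromosome 17, 45686322 to 45698495, plus strand) had normalized counts of 1632, 922, 1366 and 1572 in WT replicates 22 to 25 and 1717, 2381, 2211 and 2609 in MøFoxO1-KO replicates 26 to 29. All MøFoxO1-KO mice were above all WT mice, with WT replicate 23 lowest by a wide margin. Its log2 fold change was 0.70 ± 0.20 (SE, edgeR quasi-likelihood test, Benjamini-Hochberg adjusted P = 0.145), and 0.43 with the offset for gene length described further down.

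Mrpl23 and Mrpl22 encode proteins of the tunnel exit with bacterial relatives. Mrpl23 (ENSMUSG00000037772, chromosome 7, 142532799 to 142540747, plus strand) had normalized counts of 554, 492, 385 and 523 in WT replicates 22 to 25 and 699, 664, 622 and 776 in MøFoxO1-KO replicates 26 to 29. No WT mouse reached the lowest MøFoxO1-KO mouse, and the log2 fold change was 0.50 ± 0.13 (SE, edgeR quasi-likelihood test, Benjamini-Hochberg adjusted P = 0.132). For Mrpl22 the normalized counts were 333, 285, 310.1 and 372 in WT replicates 22 to 25 and 416, 420.4, 456 and 419 in MøFoxO1-KO replicates 26 to 29. The MøFoxO1-KO mice lay close together and above all WT mice, and the log2 fold change was 0.39 (edgeR quasi-likelihood test, Benjamini-Hochberg adjusted P = 0.152). With the length offset, Mrpl22 had a log2 fold change of 0.13 and Mrpl23 of 0.37. Mrpl52, a protein of the central protuberance, had 1098, 585, 1008 and 1013 in WT replicates 22 to 25 and 1043, 1549, 1201 and 1571 in MøFoxO1-KO replicates 26 to 29. The groups overlapped for Mrpl52, since replicate 26 was below WT replicate 22, and its log2 fold change was 0.53 ± 0.21 (SE), or 0.30 with the length offset and 0.28 with 1 surrogate variable. Mrpl34 encodes a small protein with a bacterial relative and had 762, 526, 642 and 850.2 in WT replicates 22 to 25 and 823, 999.6, 849 and 885 in MøFoxO1-KO replicates 26 to 29. Its log2 fold change was 0.36 ± 0.15 (SE) and -0.0063 with the length offset. The other Mrpl genes with an unadjusted P under 0.05 were Mrpl13, Mrpl55, Mrpl41, Mrpl46, Mrpl43, Mrpl54, Mrpl28, Mrpl48, Mrpl27, Mrpl30, Mrpl51, Mrpl58, Mrpl47, Mrpl57, Mrpl36, Mrpl11 and Mrpl20, with log2 fold changes between 0.31 (Mrpl36) and 0.48 (Mrpl54). Mrpl58 is the peptidyl-tRNA hydrolase that became a fixed ribosomal protein.

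The Mrpl genes furthest below 0 did not pass the test. Mrpl45 encodes the protein that ties the ribosome to the inner membrane at the tunnel exit. Mrpl45 had normalized counts of 689, 638, 542 and 546 in WT replicates 22 to 25 and 474, 463, 709 and 460.1 in MøFoxO1-KO replicates 26 to 29. The groups overlapped, since replicate 28 was the highest of all 8 mice while the other MøFoxO1-KO mice were the lowest, and the log2 fold change was -0.20 ± 0.16 (SE, edgeR quasi-likelihood test, Benjamini-Hochberg adjusted P = 0.587). Mrpl10, of the base of the stalk that recruits translation factors, had 679, 783, 570.4 and 625 in WT replicates 22 to 25 and 653, 607, 558 and 571 in MøFoxO1-KO replicates 26 to 29, with a log2 fold change of -0.15 ± 0.12 (SE). Mrpl16 had 570.5, 706, 504 and 506 in WT replicates 22 to 25 and 597, 608, 496 and 416 in MøFoxO1-KO replicates 26 to 29, with a log2 fold change of -0.11 ± 0.16 (SE). In both genes the mice of the groups were interleaved. With the length offset, Mrpl42 and Mrpl10 were the members lower at an unadjusted P under 0.05, with log2 fold changes of -0.37 and -0.30. Members at the threshold of an unadjusted P were Mrpl20 (0.41 on the log2 scale) and Mrps28 (0.30) just inside, and Mrpl24 (0.24) and Mrps16 (0.46) just outside.

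Mrpl53, a stalk protein, had 0 counts in all 8 mice. A count of 0 allows up to 3 counts per mouse. Of its 790 exon bases, 695 (88.0%) are also exon bases of Gm42688, which itself had 7 to 23 counts per mouse. How reads on shared bases were counted is not given in the sources used here, so the level of Mrpl53 is unknown. The 5 pseudogenes named after members held 0 to 12 counts each per mouse.

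Among the Mrps genes, Mrps18a came closest to a call. The vertebrate genome holds 3 genes for relatives of the bacterial S18 protein, and the product of Mrps18a sits in the large subunit despite its name, while those of Mrps18b and Mrps18c sit in the small one. Mrps18a (ENSMUSG00000023967, chromosome 17, 46110986 to 46128910, plus strand) had normalized counts of 552, 539.8, 529 and 724 in WT replicates 22 to 25 and 979.6, 1015, 856 and 1005 in MøFoxO1-KO replicates 26 to 29. All MøFoxO1-KO mice were above all WT mice, and WT replicate 25 stood above the other WT mice. Means were 586 ± 92.3 in WT and 964 ± 73.5 in MøFoxO1-KO livers (SD, n = 4 each), or 1.64-fold by the fit (exact permutation P = 0.0286, the smallest that 4 mice against 4 allow). The log2 fold change was 0.72 ± 0.13 (SE, edgeR quasi-likelihood test, Benjamini-Hochberg adjusted P = 0.057), and 0.74 with the length offset. Adjusted P lay between 0.000165 and 0.196 over the 18 alternatives (Benjamini-Hochberg adjustment in each) and was under 0.05 in 3 of them, which were DESeq2, edgeR without a filter on low counts and edgeR without replicate 28.

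Mrps18c (ENSMUSG00000016833, chromosome 5, 100798627 to 100804471, plus strand) had normalized counts of 309, 252, 269.5 and 287 in WT replicates 22 to 25 and 367, 436, 342 and 453 in MøFoxO1-KO replicates 26 to 29. The groups did not overlap, and the log2 fold change was 0.52 ± 0.13 (SE, edgeR quasi-likelihood test, Benjamini-Hochberg adjusted P = 0.123). With the length offset it was 0.26. Of the exon bases of Mrps18c, 23.2% are shared with Gm43511. Mrps18b, the remaining relative, had 219, 232, 237 and 193 in WT replicates 22 to 25 and 231, 210.2, 241 and 236 in MøFoxO1-KO replicates 26 to 29. Its groups were interleaved and its log2 fold change was 0.059 ± 0.12 (SE). The S18 relatives thus had log2 fold changes of 0.72, 0.52 and 0.059, and the differences between them were not tested.

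Mrps17, a protein with a bacterial relative, had normalized counts of 676, 613, 723 and 739 in WT replicates 22 to 25 and 911, 1022, 828 and 906 in MøFoxO1-KO replicates 26 to 29. Mrps26, a protein found only in mitochondrial ribosomes, had 442, 366, 419 and 453 in WT replicates 22 to 25 and 534, 574, 536 and 549 in MøFoxO1-KO replicates 26 to 29. For both genes no MøFoxO1-KO mouse was as low as any WT mouse, with log2 fold changes of 0.41 and 0.38 and standard errors of 0.11 and 0.10. Both have a long summed exon length for members of this family, and with the length offset the values were 0.50 and 0.42. Mrps21, with a bacterial relative, had 718, 429, 557 and 715 in WT replicates 22 to 25 and 721, 998, 898 and 835 in MøFoxO1-KO replicates 26 to 29. The lowest MøFoxO1-KO mouse was only just above the highest WT mouse, and the log2 fold change of Mrps21 was 0.51 ± 0.18 (SE) or 0.19 with the length offset. Mrps25 had 224, 192, 193 and 209 in WT replicates 22 to 25 and 273, 312, 227 and 306 in MøFoxO1-KO replicates 26 to 29, with a log2 fold change of 0.45. Of the exon bases of Mrps25, 69.8% are shared with Nr2c2, so that its count is uncertain. The other Mrps genes with an unadjusted P under 0.05 were Mrps24, Mrps35, Mrps12, Mrps30, Mrps7, Mrps34, Mrps15 and Mrps28, with log2 fold changes between 0.29 (Mrps30) and 0.44 (Mrps24, 0.26 with the length offset). Mrps34 shares 77.8% of its exon bases with other genes (63.4% with Mapk8ip3) and Mrps30 shares 37.8%, so that their counts are uncertain too. Mrps12 belongs to the decoding centre, and Mrps30 sits in the large subunit despite its name.

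**Figure D2:**
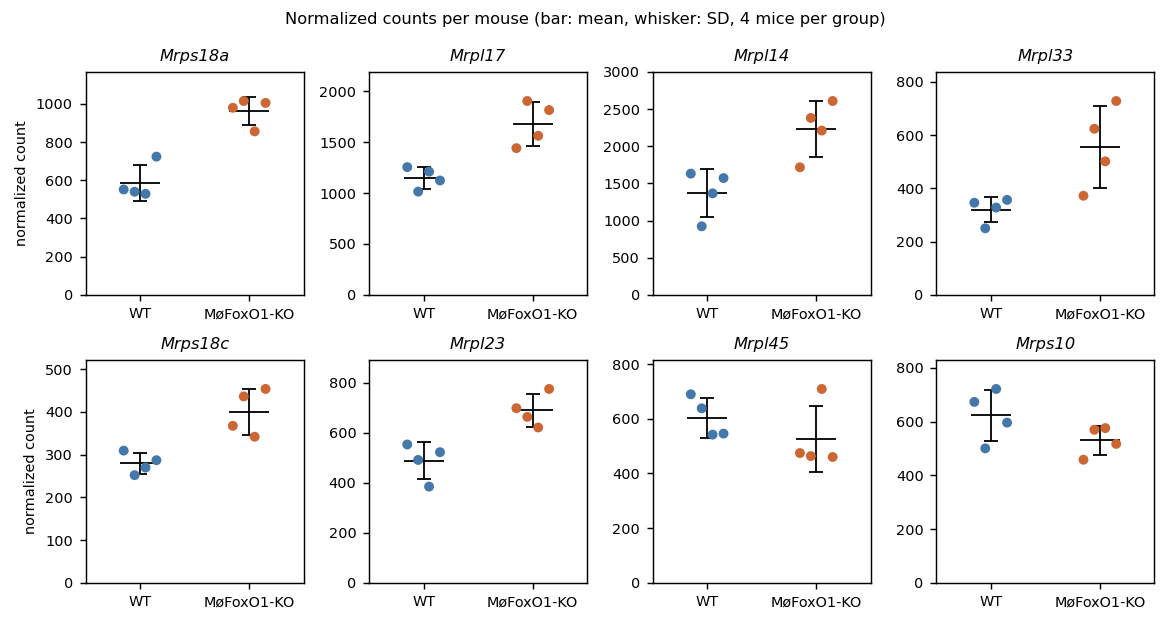
Normalized counts (vertical axes, starting at 0) of 8 members in each WT mouse (blue) and MøFoxO1-KO mouse (orange), with the mean as a bar and the SD as whiskers (n = 4 mice per group). Mrps18a, Mrpl17, Mrpl14, Mrpl33, Mrps18c and Mrpl23 have groups that do not overlap, while those of Mrpl45 and Mrps10 do.

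Mrps10 was the lowest member by log2 fold change. It encodes a protein of the head of the small subunit with a bacterial relative. Mrps10 had normalized counts of 674, 500.5, 722 and 596 in WT replicates 22 to 25 and 458, 569.7, 576 and 517 in MøFoxO1-KO replicates 26 to 29. The groups overlapped, and the log2 fold change was -0.23 ± 0.14 (SE, edgeR quasi-likelihood test, Benjamini-Hochberg adjusted P = 0.425). It was -0.36 with 1 surrogate variable and -0.32 without WT replicate 23, each at an unadjusted P under 0.05. Mrps36 had 158, 114, 136 and 203 in WT replicates 22 to 25 and 144, 150.5, 129 and 139 in MøFoxO1-KO replicates 26 to 29, with a log2 fold change of -0.12 ± 0.19 (SE). Its product is now known as a part of the 2-oxoglutarate dehydrogenase complex and not of the ribosome. Mrps31 differed by -0.014 ± 0.11 (SE), and its sign turned with upper-quartile scaling.

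The 5 ribosomal proteins with other names had values in both directions. Chchd1 had 394, 324, 371 and 385 in WT replicates 22 to 25 and 415, 534, 511 and 569.8 in MøFoxO1-KO replicates 26 to 29, with no overlap between the groups and a log2 fold change of 0.46 ± 0.13 (SE), which was 0.053 with the length offset. Ptcd3, a protein with repeats that bind RNA, had 274, 445, 304 and 294 in WT replicates 22 to 25 and 251, 219.8, 272 and 199 in MøFoxO1-KO replicates 26 to 29. For Ptcd3 all MøFoxO1-KO mice were below all WT mice, and the log2 fold change was -0.48 ± 0.18 (SE, edgeR quasi-likelihood test, Benjamini-Hochberg adjusted P = 0.225). With WT replicate 23 left out, Ptcd3 was at -0.30, and with 1 surrogate variable at -0.28, with an unadjusted P above 0.05 in both. Aurkaip1 had a log2 fold change of 0.30 ± 0.14 (SE), Dap3, which binds GTP, of 0.047 ± 0.12 (SE), and Gadd45gip1, of the large subunit, of -0.18 ± 0.25 (SE). None of the 5 was called (edgeR, Benjamini-Hochberg adjusted P of at least 0.142). With each protein counted in the subunit where it sits, 42 of 51 large subunit genes were higher at a median log2 fold change of 0.29, and 26 of 30 small subunit genes, with a median of 0.30.

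Members were also grouped by ancestry and by place in the ribosome. Of 46 tested members with a bacterial relative, 40 were higher, at a median log2 fold change of 0.30, and of 30 others, which are particular to mitochondria or, like Mrps18a and Mrps18b, named apart from their distant S18 relative (Mrps36 left out), 25 were higher, with a median of 0.24. By place in the large subunit, all 9 proteins assigned to the central protuberance were higher in the mean (median 0.37), among them Mrpl46 at 0.46, Mrpl27 at 0.37 and, near 0, Mrpl38 at 0.022. Of the 8 at the tunnel exit 5 were higher (median 0.32), and of the 4 tested stalk proteins 3 were (median 0.29). With the offset for gene length 6 of the 9 central protuberance proteins were higher, and the medians of these sites were 0.15, 0.15 and 0.11. With 1 surrogate variable, or without WT replicate 23, 7 of the 9 were higher (medians 0.28 and 0.34). The classes were assigned from general knowledge after the values had been seen, and no difference between them was tested. Mrpl46 and Mrps11, which start head to head in the windows printed above, had log2 fold changes of 0.46 ± 0.14 (SE) and 0.21 ± 0.18 (SE), and 0.26 and 0.14 with the length offset. Mrpl46 had normalized counts of 359, 313, 301 and 329 in WT replicates 22 to 25 and 387, 473, 375 and 554 in MøFoxO1-KO replicates 26 to 29. Mrps11 had 289, 162, 264 and 288 in WT replicates 22 to 25 and 283, 301, 289 and 287 in MøFoxO1-KO replicates 26 to 29. The groups were apart for Mrpl46 and overlapped for Mrps11, where WT replicate 23 alone was low. The pair shares exon bases at the starts, 12.4% of those of Mrpl46.

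Levels were compared between genes as RPKM (reads per kilobase of exon, scaled to library size), averaged over the 8 mice. Mrpl genes had a median level of 19.4 (range 1.82 to 116) and Mrps genes of 11.5 (range 2.24 to 60.5). These levels were far below those of cytosolic ribosomal proteins (median 166) and of nuclear respiratory chain genes (median 109), and above those of mitochondrial translation factors (median 6.70) and ribosome assembly factors (median 3.66). The members of 1 particle therefore spanned a wide range in mRNA level per length. Mrpl14 (116), Mrpl34 (74.9) and Mrpl52 (62.3) were the highest Mrpl genes, and Mrps21 (60.5), Mrps16 (58.1) and Mrps24 (54.1) the highest Mrps genes. The 2 lowest tested Mrpl genes were Mrpl19 (1.82) and Mrpl47 (2.72), and the 2 lowest Mrps genes were Mrps25 (2.24) and Mrps22 (4.06). Exon length divides these values and counts every annotated exon, so a gene with long annotated exons that the liver does not use reads low, and 36.0% of the exon bases of Mrpl19 are shared with Gcfc2. Within a group, members varied less from mouse to mouse than other genes. The median coefficient of variation was 12.0% in WT and 8.83% in MøFoxO1-KO mice for members, and 19.6% and 17.2% for all tested genes. Without WT replicate 23 the WT values were 7.91% for members and 14.1% for all tested genes, below those of MøFoxO1-KO mice. Members had mean normalized counts of at least 144, and low counts vary more.

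Each mouse was also described by the median, over the genes of a list, of its log2 normalized count minus the mean of that gene over the 8 mice. For Mrpl genes these medians were -0.057, -0.29, -0.17 and 0.0081 in WT replicates 22 to 25 and 0.023, 0.21, 0.084 and 0.23 in MøFoxO1-KO replicates 26 to 29. For Mrps genes they were 0.0042, -0.34, -0.19 and 0.0022 in WT replicates 22 to 25 and 0.12, 0.18, 0.11 and 0.23 in MøFoxO1-KO replicates 26 to 29. In both subunits the lowest MøFoxO1-KO mouse exceeded the highest WT mouse, by a narrow margin for replicate 26 against WT replicate 25 in the Mrpl genes, and WT replicate 23 was lowest. This separation was not particular to members. The lowest MøFoxO1-KO and highest WT medians were 0.032 and -0.032 for nuclear respiratory chain genes, and 0.024 and -0.0077 for ribosome assembly factors. For all genes of the shortest length quintile (57 to 1995 bases) they were 0.033 and -0.0064, with the mice in the order of the Mrpl genes. WT replicate 23 was the lowest of the 8 mice for 45 of 77 members and WT replicate 24 for 16, while replicates 29 and 27 were the highest for 30 and 22. Members held 0.289, 0.225, 0.287 and 0.286% of all counts in WT replicates 22 to 25. In MøFoxO1-KO replicates 26 to 29 they held 0.276, 0.296, 0.306 and 0.311%. By this share, taken before TMM normalization, the groups overlapped, since replicate 26 lay below WT replicates 22, 24 and 25. The summed normalized counts of members were 37201 to 45590 in WT and 47733 to 54629 in MøFoxO1-KO mice. The separation of the groups in this sum thus rested on the TMM scaling. Without WT replicate 23, 41 of 48 Mrpl genes were higher at a median log2 fold change of 0.23, and 27 of 29 Mrps genes with a median of 0.24. In that fit 19 Mrpl and 10 Mrps genes were higher at an unadjusted P under 0.05, where 7.15% of all genes tested in it were. No Mrpl gene was lower at that P and 1 Mrps gene was, Mrps10 at a log2 fold change of -0.32, beside 5.96% of all genes. Over the 8 fits that each left out 1 mouse, the median lay between 0.23 and 0.33 for Mrpl and between 0.24 and 0.36 for Mrps genes.

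Members were also correlated within the groups. After the mean of its group was taken from each gene, the median correlation over the 8 mice was 0.369 among all pairs of members, and 0.293 over 7 mice without WT replicate 23. It was 0.0948 among all genes of the shortest length quintile, 0.609 among nuclear respiratory chain genes and 0.906 among cytosolic ribosomal protein genes. The genes of a pair share their libraries, and the lists were not matched for expression level, so these values are a description. Members had mean normalized counts of at least 144, and low counts vary more.

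**Figure D3:**
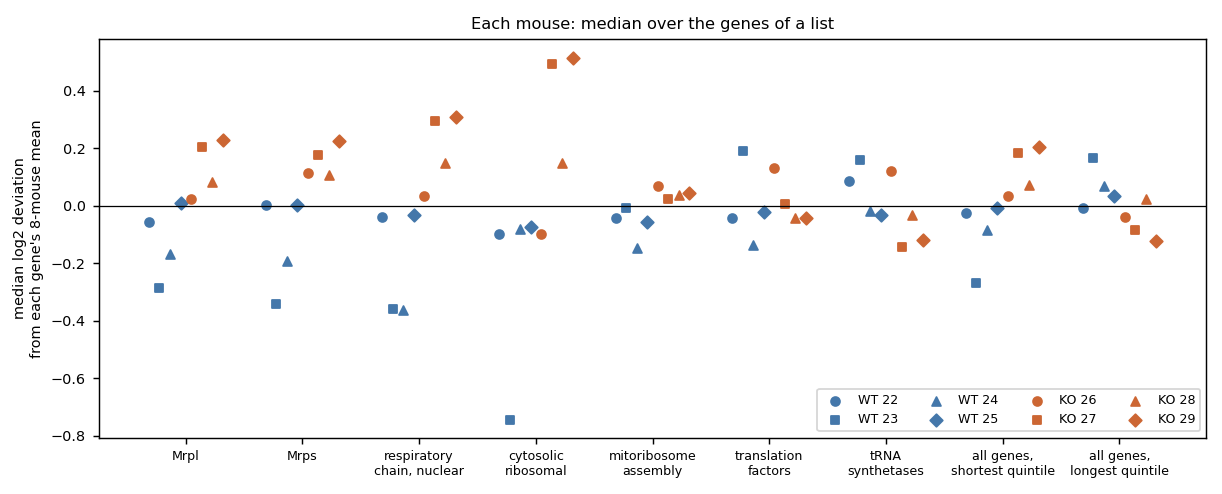
Median over the genes of each list (horizontal axis) of the log2 deviation from each gene's mean over 8 mice (vertical axis), 1 point per mouse, WT in blue and MøFoxO1-KO (KO) in orange. For Mrpl and Mrps genes all orange points lie above all blue points and WT 23 is lowest. The shortest quintile of all genes shows the same separation. It ranks the 8 mice in the same order as the Mrpl genes, from WT 23 at the bottom to KO 29 at the top. The nuclear respiratory chain and assembly lists are separated too.

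Gene length moved with the difference. Tested members had a median summed exon length of 1848 bases, against 3773 over all tested genes, with a median GC content of 49.7% and 49.5%. Among all genes of the shortest quintile (57 to 1995 bases) the median log2 fold change was 0.21, and in the longest quintile (6635 bases or more) it was -0.11. Of the 39 members in the shortest quintile, 33 were higher, with a median of 0.31, where 72.4% of all genes of that quintile were higher. The longer quintiles held 14, 12, 7 and 5 members, of which 10, 12, 6 and 4 were higher. Their medians were 0.15, 0.33, 0.22 and 0.35, beside 0.013, -0.039, -0.080 and -0.11 for all genes of the same length. The median of members was thus above that of all genes in each quintile, by less in the shortest quintile than in the others. Summed exon length counts every annotated exon and not the transcript used in the liver, and it places Mrpl33 (7326 bases) in the longest quintile. All quintiles above the first hold fewer than 20 members. An offset that removes the trend of each library with length lowered the medians to 0.13 for Mrpl genes (34 of 48 higher) and 0.15 for Mrps genes (22 of 29 higher). With it, 12 Mrpl and 8 Mrps genes were higher at an unadjusted P under 0.05, where 6.65% of all tested genes were, and 2 and 0 were lower, where 7.32% were. The trend also differed between mice of a group. In the shortest quintile all MøFoxO1-KO mice were above all WT mice. The per-mouse medians there were -0.27 in WT replicate 23, -0.0064 in WT replicate 25 and 0.033 in replicate 26. In the longest quintile the groups overlapped, with replicate 28 (0.023) above WT replicate 22 (-0.0069). Whether the length trend is a property of the libraries or of the livers cannot be told apart, since each library is 1 mouse.

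**Figure D4:**
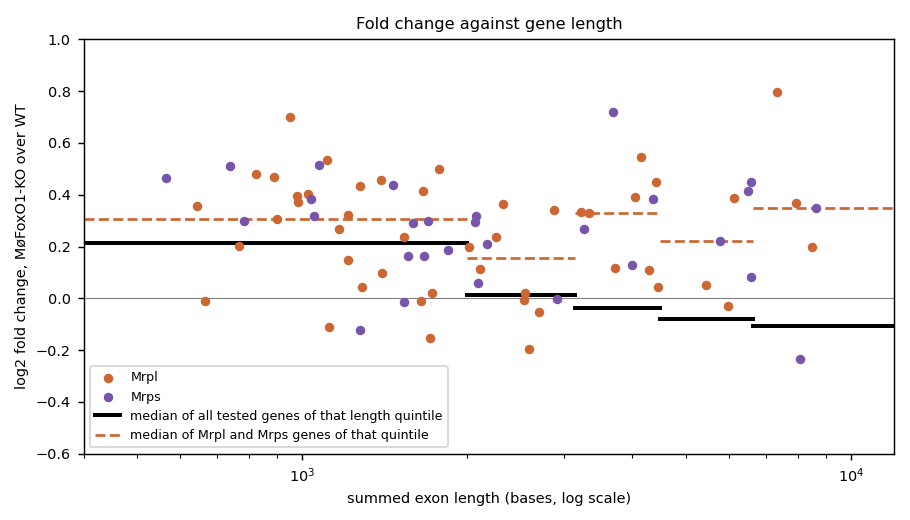
Log2 fold change (MøFoxO1-KO over WT, vertical axis) of each tested Mrpl and Mrps gene against its summed exon length in bases (log axis), with the median of all tested genes (black) and of members (dashed) within each quintile of length, with the outer lines running to the ends of the axis. The black medians fall with length from 0.21 to -0.11, and the dashed medians lie above them in each quintile.

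The direction of the members held under most choices. Of 65 members higher in the fit of all 8 mice, 54 were higher in all 18 alternatives, and of the 38 with an unadjusted P under 0.05, 36 were. Of 12 members that were lower, 3 were lower in all alternatives. Another scaling changed the sign of 5 members, whose log2 fold changes lay between -0.014 and -0.0020. With 1 surrogate variable, which is largest in WT replicate 23, the medians were 0.20 for Mrpl and 0.23 for Mrps genes. In that fit 19 Mrpl and 9 Mrps genes were higher at an unadjusted P under 0.05, and 7.58% of all tested genes. No Mrpl gene and 1 Mrps gene (Mrps10) were lower at that P, and 6.84% of all tested genes. Members without any exon base shared with another gene (48 tested) had a median of 0.27, with 39 higher.

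**Figure D5:**
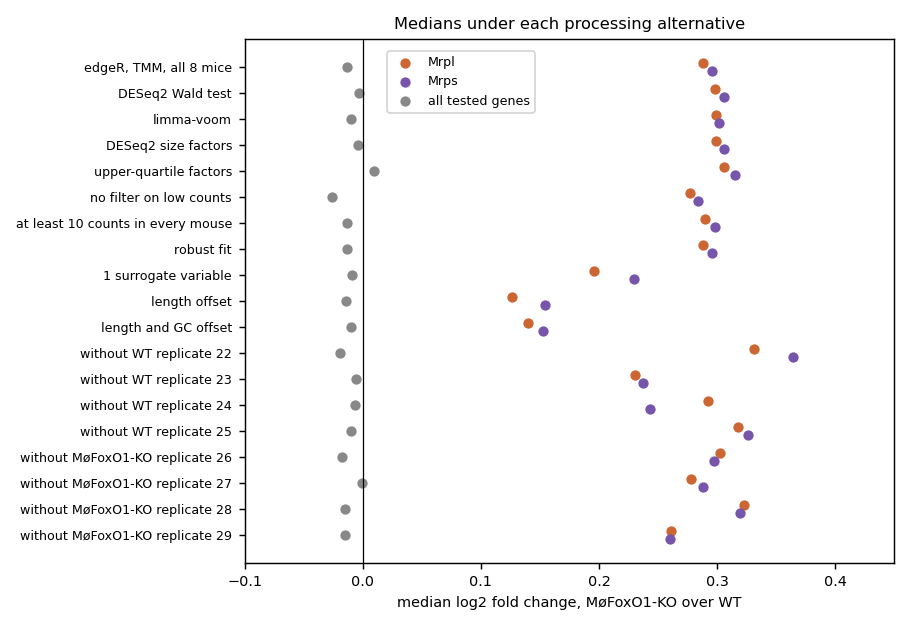
Median log2 fold change (MøFoxO1-KO over WT, horizontal axis) of the tested Mrpl genes, Mrps genes and all genes under each fit. The medians of both subunits stay above those of all genes in every fit, and are lowest with the 2 offsets for length, at 0.13 to 0.15.

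Other genes that serve mitochondrial gene expression had medians closer to 0 than the members in the fit of all 8 mice, and the gap narrowed under some alternatives. Of 28 ribosome assembly factors, 20 were higher and 8 lower, and the median log2 fold change was 0.084. Of these, 4 were higher and 0 lower at an unadjusted P under 0.05, beside 8.65% and 8.06% of all tested genes. With the length offset their median was 0.061 (19 of 28 higher), beside 0.13 for Mrpl and 0.15 for Mrps genes. With 1 surrogate variable it was 0.095, beside 0.20 and 0.23. Malsu1, which keeps the subunits from joining too early, had normalized counts of 358, 262, 274 and 357 in WT replicates 22 to 25 and 430.4, 468, 395 and 499 in MøFoxO1-KO replicates 26 to 29. Mpv17l2, an inner membrane protein needed for ribosome assembly, had 318, 252, 216 and 313 in WT replicates 22 to 25 and 509, 423, 319.8 and 427 in MøFoxO1-KO replicates 26 to 29. The groups did not overlap for either gene, and their log2 fold changes were 0.52 and 0.61 (standard errors 0.14 and 0.17), or 0.54 and 0.35 with the length offset. Among 15 translation factors and related proteins, 9 were higher, with a median of 0.0099 (0.013 with the length offset and 0.093 with 1 surrogate variable). Gfm1, the elongation factor that moves the ribosome along the mRNA, had 1278, 2017, 1019.9 and 1164 in WT replicates 22 to 25 and 1233, 795, 940.5 and 909 in MøFoxO1-KO replicates 26 to 29. WT replicate 23 was the highest mouse by far, and its log2 fold change was -0.50 ± 0.22 (SE). Without that mouse it was -0.25, and with 1 surrogate variable -0.18, with an unadjusted P above 0.05 in both. Slirp, which stabilizes mitochondrial mRNAs, had a log2 fold change of 0.46 ± 0.19 (SE), with overlapping groups.

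Of 20 genes for mitochondrial aminoacyl-tRNA synthetases and the glutaminyl-tRNA amidotransferase, 8 were higher and 12 lower, with a median of -0.096. Lars2, the leucine enzyme, had normalized counts of 8685, 6006, 8633 and 12242 in WT replicates 22 to 25 and 12756, 20903, 13308 and 21906 in MøFoxO1-KO replicates 26 to 29. The level per length of Lars2, 205, was far above the median of the list (4.06), and the cause of this was not tested. Its values ranked the mice in the same order as the per-mouse medians of the Mrpl genes. The groups did not overlap, and the log2 fold change of Lars2 was 0.95 ± 0.25 (SE). Iars2, the isoleucine enzyme, went the other way, with 1035, 1569, 1009.7 and 864 in WT replicates 22 to 25 and 993, 690.3, 779 and 706 in MøFoxO1-KO replicates 26 to 29 and a log2 fold change of -0.50 ± 0.20 (SE), which was -0.29 without WT replicate 23 and -0.25 with 1 surrogate variable. Among 11 genes of mitochondrial transcription and DNA replication the median was 0.028, with Mterf1a at 0.70 ± 0.32 (SE, 14.7 to 53.1 normalized counts per mouse) and Tfb2m at -0.31 ± 0.17 (SE). Of 9 regulators of mitochondrial biogenesis, 7 were lower and 2 higher, with a median of -0.14. Ppargc1a, the coactivator PGC-1α, had 118, 168, 108 and 166 in WT replicates 22 to 25 and 86.3, 97.9, 119 and 84.0 in MøFoxO1-KO replicates 26 to 29. Myc had 73.1, 84.6, 162 and 65.7 in WT replicates 22 to 25 and 50.8, 27.5, 45.6 and 78.4 in MøFoxO1-KO replicates 26 to 29. Both overlapped between the groups, with log2 fold changes of -0.53 and -0.93 (standard errors 0.21 and 0.37), each lower at an unadjusted P under 0.05. Without WT replicate 24 the value of Myc was -0.56. None of these lists held a gene past an adjusted P of 0.05 by edgeR with Benjamini-Hochberg adjustment.

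Nuclear genes of the respiratory chain and ATP synthase, whose products join the proteins made by mitochondrial ribosomes, were higher in 72 of 79 tested, with a median log2 fold change of 0.38 (0.15 with the length offset). Atp5o had normalized counts of 2984, 2725, 2485 and 3036 in WT replicates 22 to 25 and 3629, 4503, 3545 and 4461 in MøFoxO1-KO replicates 26 to 29. Ndufb2, of complex I, had 247, 208, 279 and 327 in WT replicates 22 to 25 and 409, 465, 468 and 592 in MøFoxO1-KO replicates 26 to 29. For both genes the groups were apart, with log2 fold changes of 0.52 and 0.87. Cytosolic ribosomal protein genes were higher in 84 of 87, with a median of 0.52 (0.29 with the length offset). Rpl22l1 had a log2 fold change of 0.71 and Rplp1 of 0.69 (0.25 with the length offset), with no overlap between groups for either. In the cytosolic list the per-mouse median was -0.74 in WT replicate 23 and -0.098 in replicate 26, so that replicate 26 did not stand above the WT mice there as it did in the mitochondrial list. Cytosolic ribosomal protein genes have many processed pseudogenes, with which counts could be split. The differences between the lists were not tested.

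The mRNAs that mitochondrial ribosomes translate depended on the offset in their direction. Of 12 tested mitochondrially encoded mRNAs, 9 were higher, at a median log2 fold change of 0.11, and 1 of 12 with the length offset (median -0.21). None had an unadjusted P under 0.05. Those with the smallest P were mt-Co3 at 0.38 ± 0.20 (SE) and mt-Nd5 at -0.43 ± 0.26 (SE). Counts of mt-Co3 were 172 to 359 per mouse after normalization and those of mt-Nd5 25689 to 80009, so that the mRNAs of 1 genome were counted very unevenly.

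Markers of liver cell types were set beside these values, since whole liver mixes cell types. The summed normalized counts of 9 hepatocyte markers, all detected, were 1065490 to 1504760 in WT and 1255120 to 1860400 in MøFoxO1-KO mice, and 7 of the 9 were higher. Those of 11 macrophage markers, all detected, were 3001 to 5252 in WT and 3177 to 14192 in MøFoxO1-KO mice, with 8 higher and 3 lower. Their log2 fold changes ran from -4.13 (Gpnmb) to 5.18 (Marco). Gpnmb and Trem2, which mark lipid-associated macrophages, were below all WT mice in every MøFoxO1-KO mouse, and Gpnmb passed the adjusted threshold (edgeR quasi-likelihood test, Benjamini-Hochberg adjusted P = 0.0382). The sums of 5 endothelial markers were 1397 to 2990.1 in WT and 2264 to 3627 in MøFoxO1-KO mice, and those of 4 B cell markers 33.4 to 238 in WT and 142 to 332 in MøFoxO1-KO mice. WT replicate 23, the lowest mouse for members, was also the lowest of the 8 in the sums of the macrophage, endothelial and B cell lists. It was the highest WT mouse for hepatocyte markers (1504760), and other mice were lowest in the neutrophil, T and NK cell, stellate cell and cholangiocyte lists. Neutrophil, T and NK cell, stellate cell and cholangiocyte lists were also summed, the ranges of the groups overlapped in each of the 8 lists, and no marker of any of the 8 lists was at 0 in all mice. The part of cell composition in the differences of the members was not tested.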

How the data were processed

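Liver RNA-Seq of 4 WT and 4 MøFoxO1-KO mice was used. The authors deposited 1 table of raw read counts per Ensembl gene on GRCm38, with summed exon lengths and no normalization. The submitters' processing notes name STAR, featureCounts and mm10 without versions, and the strand setting is not given in the sources used here. Symbols came from GENCODE M21 (46005 of 46517 genes).

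Genes were filtered with filterByExpr (minimum count 10, minimum total 15), which left 13278 genes. After TMM scaling, edgeR 4.0.16 (R 4.3.3) fitted genotype alone, and its quasi-likelihood F test was applied with Benjamini-Hochberg adjustment over all of them. The common biological coefficient of variation was 0.256. Totals of 15253218 to 18025481 counts per mouse limit the precision for genes with few counts. Exact two-sided permutation tests of normalized counts used scipy 1.17.1, and 4 mice against 4 allow no P under 0.0286. Replicate numbers are not shared between the groups, so no pairing was used.

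Alternatives were DESeq2 1.42.0, limma-voom (limma 3.58.1), other size factors, other filters, the robust fit, 1 surrogate variable (sva 3.50.0), offsets from smooths (mgcv 1.9.3) of each library against exon length and GC content, and leaving out each mouse. The split by ancestry and place, the length quintiles and the members without shared exon bases were added after seeing the data. Members, lists and tests were chosen with earlier results of these data known. Genes with values in the text are, per subunit, the 5 smallest P, the 3 largest and 3 most negative log2 fold changes, the 3 highest and 2 lowest levels per length, each member that failed the filter, ribosomal proteins named otherwise, and the 2 smallest P of each other list. Mrps18b, Mrpl46, Mrps11, Mrpl42 and the other members with an unadjusted P under 0.05 or near that limit, or named in a ribosome region, were named after their values were seen. Promoters are from RefSeq (GRCm38.p6), and roles of proteins are general knowledge. Tables were handled with pandas 2.3.3 and plotted with matplotlib 3.10.9 in Python 3.11.15.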

Additional observations from a re-analysis of the deposited data

Results flagged for a closer look

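In 96 groups of 4 mice (named genes and per-mouse medians of Mrpl, Mrps and all members), Dixon's test was applied to the highest and the lowest mouse, and 5 groups had a mouse far from the others. Chance flags about 1 in 20 groups. Replicate 28 stood above the other MøFoxO1-KO mice in 3 genes. It had 709 normalized counts of Mrpl45 where the others had 460.1 to 474, 588 of Gadd45gip1 where the others had 284 to 322, and 456 of Mrpl22 where the others had 416 to 420.4. Without replicate 28, the log2 fold change was -0.36 for Mrpl45 and -0.47 for Gadd45gip1, against -0.20 and -0.18 with all 8 mice. WT replicate 25 had 724 normalized counts of Mrps18a, where the other WT mice had 529 to 552. WT replicate 23 had 445 of Ptcd3, where the other WT mice had 274 to 304, and without it the log2 fold change of Ptcd3 was -0.30 against -0.48 with all 8 mice.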

How the results depend on the processing

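Other tools, scalings and filters kept the medians of both subunits within the spread of the main values, and the offsets for length moved them. With the length offset the median log2 fold change was 0.13 for Mrpl genes, 0.15 for Mrps genes, 0.15 for nuclear respiratory chain genes and -0.21 for mitochondrially encoded mRNAs, and 12 Mrpl and 8 Mrps genes were higher at an unadjusted P under 0.05. At that P, 6.65% of all tested genes were higher with the length offset. With length and GC offsets the medians were 0.14, 0.15, 0.15 and -0.21, and 11 and 7 genes were higher, beside 930 of all 13278 tested genes. With 1 surrogate variable, 9 Mrps genes were higher and 1 (Mrps10) lower at that P, beside 7.58% and 6.84% of all tested genes. The median of aminoacyl-tRNA synthetases turned to 0.053 in that fit. Leaving out 1 mouse gave 8 to 15 Mrps genes higher at that P (9 without WT replicate 24, 9 without replicate 27 and 8 without replicate 29). Over all tested genes the number higher at that P also varied between these fits, from 765 to 1248. The median of regulators of mitochondrial biogenesis was -0.22 with limma-voom and -0.19 to -0.045 with 1 mouse left out (-0.078, -0.045 and -0.050 without replicates 22, 26 and 27). The cause of these shifts was not tested. Over all genes, 39 passed the adjusted P in edgeR and 586 in DESeq2 (Benjamini-Hochberg adjustment in both).

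Single genes near 0 changed sign. With 1 surrogate variable the log2 fold change was 0.048 for Mrpl16, -0.028 for Mrpl19 and 0.055 for Mrps31, which was 0.012 with upper-quartile factors. Mrpl34 was at -0.0063 with the length offset. With 1 mouse left out the ranges were -0.18 to 0.0073 for Mrpl16, -0.050 to 0.13 for Mrpl19 (-0.050 without replicate 27), -0.24 to 0.045 for Mrps36, -0.062 to 0.051 for Mrps31 and -0.039 to 0.11 for Dap3. No paired analysis was possible because the groups share no replicate numbers. All alternatives gave values. Genes that share exon bases, low counts and whole-liver RNA limit what single values can show.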
